A study of Mus musculus with 6 samples.

Results

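The genes described here are 38 genes of the NF-kB pathway and its inflammatory targets, taken by symbol from a table of 23337 genes counted in mouse cardiomyocytes. Wild-type mice were injected on postnatal day 1 with AAV, an adeno-associated viral vector, and at 4 weeks of age their cardiomyocytes were released by Langendorff perfusion and purified by fluorescence-activated sorting. The 3 groups had 2 libraries each: AAV-GFP (the control virus), AAV-XBP1S and AAV-ATF6N. Both delivered factors, XBP1 and ATF6, act in the unfolded protein response, which adjusts transcription when misfolded proteins collect in the endoplasmic reticulum. The treatment labels write AAV-XBP1 and AAV-ATF6, and the sources used here give neither the promoter in each virus nor the number of mice behind a library. All 3 groups carried a virus, and no library from untreated mice was analysed here. The set was put together with results of these data known. Some of its genes were selected on their measured values, being lower in both treated groups than in AAV-GFP, and which ones is recorded only in part. The 6 that earlier results singled out, Icam1, Selp, Il15, Rnd1, Nuak2 and Gadd45b, are called the selected genes here. These are given as a description, apart from the remaining 32 genes, which may hold further genes chosen for this pattern.

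NF-kB is a family of dimeric transcription factors (RelA, RelB, c-Rel and the products of Nfkb1 and Nfkb2) that are held inactive in the cytoplasm by IkB proteins. Signals from cytokine and pattern-recognition receptors activate a kinase complex that marks the IkB proteins for destruction, and the freed dimers bind kappaB sites in the promoters of adhesion molecules, cytokines and chemokines. The same dimers switch on genes for their own inhibitors, such as Nfkbia and Tnfaip3, so that the response limits itself. In the heart this pathway is known for its part in injury, infection and pressure overload.

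Libraries held 67702482 to 112049342 counted reads, and 3 counts, taken as the floor, corresponded to 0.0305 to 0.0459 CPM. Levels are CPM, counts scaled to library size with TMM factors, with n = 2 libraries in each group. The labels do not say that the 2 libraries of a group came from separate mice, so p-values measure the spread between these libraries, which may be technical. The 2 AAV-ATF6N libraries were much closer to each other than those of the other groups: over genes with at least 20 counts in the pair, chi-square per degree of freedom was 11.4 for AAV-ATF6N, 267 for AAV-XBP1S and 705 for AAV-GFP. AAV-GFP replicate 1 stood apart from the other 5 libraries on the first principal component, and ribosomal Rn45s took 0.337% of its counts against 0.0319% to 0.130% elsewhere. Cardiomyocyte markers summed to 80600 to 135216 CPM, and all 10 were detected in every library. The Y-linked Eif2s3y measured 16.6 and 13.7 CPM in AAV-GFP and 44.3 and 43.2 CPM in AAV-ATF6N, and had 0 counts in both AAV-XBP1S libraries. Xist measured 24.6 and 7.88 CPM in AAV-GFP, 43.1 and 20.2 CPM in AAV-XBP1S, and 0.197 and 0.0919 CPM in AAV-ATF6N. The sex makeup of the libraries therefore moved with the groups, and its part in any result below cannot be told apart from that of the virus. Of the delivered factors, Xbp1 measured 98.0 and 115 CPM in AAV-GFP, 160 and 166 CPM in AAV-XBP1S and 145 and 152 CPM in AAV-ATF6N. Atf6 measured 44.9 and 70.6 CPM in AAV-GFP, 77.0 and 111 CPM in AAV-XBP1S and 162 and 158 CPM in AAV-ATF6N. Neither gene passed the test in any comparison, and whether reads of the delivered sequences were counted under these genes was not tested.

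All 38 genes passed the filter on low counts and were tested among 14587 genes with edgeR's quasi-likelihood test at an adjusted p of 0.05. Of the remaining 32 genes, 4 fell and 0 rose in AAV-XBP1S against AAV-GFP, where 0.137% of all genes tested were called lower and 0.178% higher. In AAV-ATF6N against AAV-GFP, 4 fell and 0 rose, where 0.165% of all genes were called lower and 0.35% higher. The median log2 fold change of the 32 genes was -0.76 in AAV-XBP1S and -0.64 in AAV-ATF6N, beside -0.01 and -0.02 over all genes tested. Both AAV-XBP1S libraries lay below both AAV-GFP libraries for 22 of the 32 genes and above both for 1, against 16.8% and 19.1% of all genes. For AAV-ATF6N the numbers were 20 below and 6 above, against 26.7% and 27.9% of all genes. For 16 of the 32 genes all 4 treated libraries lay below both AAV-GFP libraries, beside 9.31% of all genes. Both comparisons use the same AAV-GFP libraries, and this is the pattern on which part of the set was chosen.

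**Figure D1:**
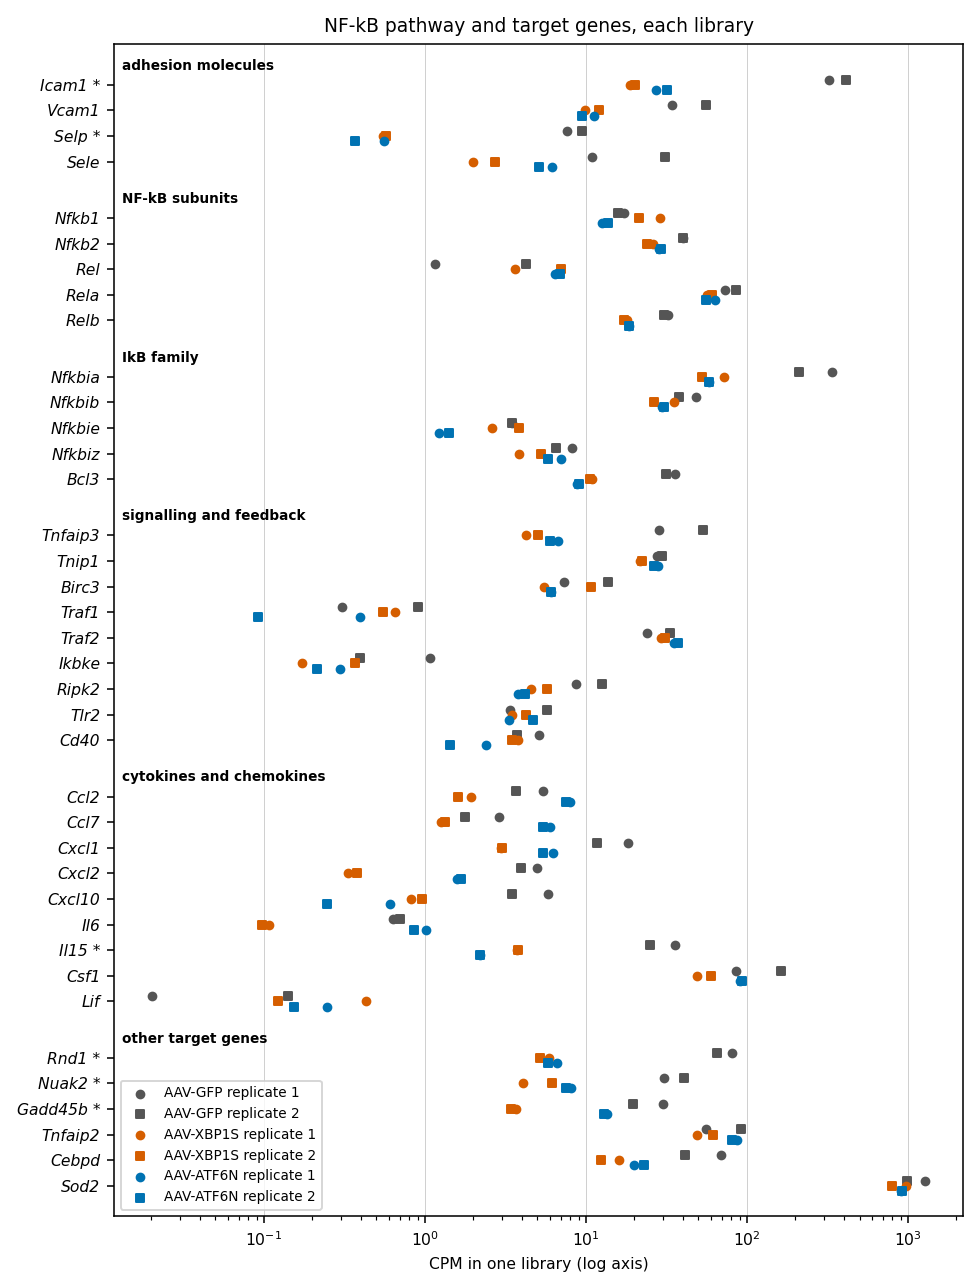
Level of each of the 38 genes in each library, in CPM on a log axis, grouped by role; circles are replicate 1, squares replicate 2, grey is AAV-GFP, orange AAV-XBP1S and blue AAV-ATF6N, and an asterisk marks the 6 genes selected on their values. Icam1 in grey reaches 323 and 415 CPM while every treated library is at or below 31.8 CPM, and Ccl2, Ccl7 and Il6 have blue points to the right of orange ones.

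Per length of transcript, the order of levels in AAV-GFP was led by Sod2 at a mean of 294 RPKM (a count scaled to depth and transcript length), Nfkbia at 173 RPKM and Icam1 at 145 RPKM. Rnd1 followed at 33.2 RPKM and Rela at 29.3 RPKM. In AAV-XBP1S, Sod2 (232 RPKM), Nfkbia (39.6 RPKM) and Rela (21.6 RPKM) came first, and Icam1 was in place 9 at 7.68 RPKM. In AAV-ATF6N, Sod2 was at 237 RPKM, Nfkbia at 36.7 RPKM and Tnfaip2 at 23.6 RPKM, with Icam1 in place 8 at 11.6 RPKM. Sod2, mitochondrial superoxide dismutase, thus led in all 3 groups.

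Among the 6 genes selected on their values, Icam1 (chr9:21015960-21028796, mm10), a cell-surface ligand of leukocyte integrins, had the highest level in AAV-GFP. It measured 323 and 415 CPM in AAV-GFP, 18.8 and 20.3 CPM in AAV-XBP1S and 27.3 and 31.8 CPM in AAV-ATF6N. The group means were 18.9-fold and 12.5-fold lower than in AAV-GFP. Selp (chr1:164115264-164150026), P-selectin of endothelium and platelets, measured 7.58 and 9.50 CPM in AAV-GFP, 0.548 and 0.574 CPM in AAV-XBP1S and 0.554 and 0.367 CPM in AAV-ATF6N. Its means were 15.2-fold and 18.5-fold lower. The antisense gene Gm16548 shares 438 of the 3438 exon bases of Selp, and the kit does not mark strand, so reads of that stretch cannot be told apart.

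Il15 (chr8:82331624-82402586) encodes a cytokine that sustains natural killer and memory T cells. It measured 35.7 and 24.9 CPM in AAV-GFP, 3.74 and 3.80 CPM in AAV-XBP1S and 2.21 and 2.20 CPM in AAV-ATF6N, which put the treated means 8.04-fold and 13.7-fold lower. Rnd1 (chr15:98669205-98677461) measured 81.3 and 64.9 CPM in AAV-GFP, 5.91 and 5.16 CPM in AAV-XBP1S and 6.62 and 5.85 CPM in AAV-ATF6N. Its means were 13.2-fold and 11.7-fold lower. Nuak2 (chr1:132316125-132333488), a kinase related to AMPK, measured 30.5 and 40.5 CPM in AAV-GFP, 4.04 and 6.18 CPM in AAV-XBP1S and 8.02 and 7.49 CPM in AAV-ATF6N, with means 6.94-fold and 4.57-fold lower. In these 3 genes the treated libraries all lay below the AAV-GFP libraries.

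Gadd45b (chr10:80930091-80932204) is a stress-inducible gene that limits cell death downstream of NF-kB. Like 30.2% of all genes tested, Gadd45b was higher in both AAV-ATF6N libraries than in both AAV-XBP1S libraries, without passing the test (edgeR adjusted p = 0.0579). It measured 30.3 and 19.5 CPM in AAV-GFP, 3.66 and 3.45 CPM in AAV-XBP1S and 13.4 and 12.9 CPM in AAV-ATF6N. The means were 6.99-fold lower in AAV-XBP1S and 1.89-fold lower in AAV-ATF6N. The median log2 fold change of the 6 selected genes was -3.36 in AAV-XBP1S and -3.60 in AAV-ATF6N, values that follow from how they were chosen.

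None of the 8 genes of receptors, adaptors and kinases in the set passed edgeR's test against AAV-GFP. Ripk2, the kinase that relays NOD receptor signals, measured 8.70 and 12.6 CPM in AAV-GFP, 4.57 and 5.72 CPM in AAV-XBP1S and 3.77 and 4.16 CPM in AAV-ATF6N. Its log2 fold changes were -1.05 in AAV-XBP1S and -1.43 in AAV-ATF6N (edgeR adjusted p = 0.254 and 0.127). All treated libraries were below the AAV-GFP libraries. The receptor Cd40 ran from 3.75 to 5.10 CPM in AAV-GFP, from 3.50 to 3.79 CPM in AAV-XBP1S and from 1.44 to 2.40 CPM in AAV-ATF6N. The receptor Tlr2, which senses bacterial lipoproteins, overlapped between all groups at 3.31 to 5.75 CPM. Traf2, an adaptor of TNF receptors, had log2 fold changes of 0.07 and 0.33, and Birc3, a ubiquitin ligase recruited by it, of -0.36 and -0.79. Tnip1, a partner of the protein encoded by Tnfaip3, had log2 fold changes of -0.37 and -0.07. Traf1 and the kinase gene Ikbke were near the limit of counting, at 6 to 65 and 14 to 106 counts per library, and with standard errors of 0.82 to 0.91 on the log2 scale no change was detectable at this depth.

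None of the 5 genes of the NF-kB subunits passed the test in any comparison. Rela, encoding the main transactivating subunit, measured 73.6 and 85.0 CPM in AAV-GFP, 56.3 and 60.9 CPM in AAV-XBP1S and 63.2 and 55.7 CPM in AAV-ATF6N. Its log2 fold changes were -0.43 ± 0.20 (SE) and -0.41 ± 0.20 (SE), with edgeR adjusted p = 0.465 and 0.384. The treated libraries lay below the AAV-GFP ones without passing the test. Nfkb1, encoding a precursor that is cut to a DNA-binding subunit, measured 17.2 and 15.9 CPM in AAV-GFP, 28.6 and 21.3 CPM in AAV-XBP1S and 12.5 and 13.7 CPM in AAV-ATF6N. Its log2 fold changes were 0.59 ± 0.23 (SE) and -0.33 ± 0.23 (SE), with edgeR adjusted p = 0.404 and 0.470. Nfkb1 was the 1 gene of the remaining 32 with both AAV-XBP1S libraries above both AAV-GFP libraries.

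Nfkb2 and Relb, whose products form the dimer of the non-canonical pathway, had lower levels in all treated libraries. Relb measured 32.3 and 30.3 CPM in AAV-GFP and 17.3 to 18.6 CPM in the 4 treated libraries, with log2 fold changes of -0.83 and -0.75 (edgeR adjusted p = 0.197 and 0.216). Nfkb2 measured 39.8 CPM in both AAV-GFP libraries and 23.9 to 29.2 CPM in the treated ones, with log2 fold changes of -0.67 and -0.46. Rel, encoding c-Rel of lymphoid cells, differed between the AAV-GFP libraries themselves, at 1.16 and 4.24 CPM, and ran from 3.62 to 6.99 CPM in the treated libraries.

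Of the 8 calls against AAV-GFP in the remaining genes, 5 belonged to Nfkbia, Tnfaip3 and Bcl3, which encode regulators of NF-kB and are themselves its targets. A gene is counted here for each comparison it passed, and the grouping was made with the calls known. Other regulators in the set (Nfkbib, Nfkbie, Nfkbiz, Tnip1 and Birc3) were not called in either comparison, so no concentration of calls in regulators is claimed. Nfkbia (chr12:55489409-55492647), encoding IkB alpha, measured 335 and 210 CPM in AAV-GFP, 72.3 and 52.9 CPM in AAV-XBP1S and 57.9 and 58.0 CPM in AAV-ATF6N. Its means were 4.35-fold and 4.70-fold lower, and the groups did not overlap. It fell in AAV-ATF6N with a log2 fold change of -2.23 ± 0.30 (SE) and edgeR adjusted p = 0.0401. In AAV-XBP1S its log2 fold change of -2.12 ± 0.29 (SE) gave edgeR adjusted p = 0.0524 and missed the threshold. Tnfaip3 (chr10:19000910-19015410), encoding a deubiquitinase that ends signalling from TNF and Toll-like receptors, measured 28.5 and 53.3 CPM in AAV-GFP, 4.26 and 5.05 CPM in AAV-XBP1S and 6.68 and 5.94 CPM in AAV-ATF6N. It fell in AAV-XBP1S with a log2 fold change of -3.14 ± 0.35 (SE; edgeR adjusted p = 0.0273) and in AAV-ATF6N with one of -2.70 ± 0.34 (SE; edgeR adjusted p = 0.0357). Bcl3 (chr7:19808462-19822755), an atypical IkB protein that acts in the nucleus, measured 35.6 and 31.6 CPM in AAV-GFP, 10.9 and 10.6 CPM in AAV-XBP1S and 8.86 and 9.09 CPM in AAV-ATF6N. It fell in both treated groups, with log2 fold changes of -1.64 ± 0.20 (SE; edgeR adjusted p = 0.0404) and -1.90 ± 0.21 (SE; edgeR adjusted p = 0.0248).

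The promoters of the inhibitor genes Nfkbia and Tnfaip3 are shown because both genes fell and both are textbook NF-kB targets. The lines give the 250 bases before the RefSeq start on GRCm38.p6, 5′ to 3′ on the strand of the gene, with matches to the kappaB consensus on either strand in capitals. The Nfkbia stretch is chr12:55492648-55492897 (minus strand) and the Tnfaip3 stretch, at the more upstream of its 2 starts, is chr10:19015411-19015660 (minus strand).
Nfkbia: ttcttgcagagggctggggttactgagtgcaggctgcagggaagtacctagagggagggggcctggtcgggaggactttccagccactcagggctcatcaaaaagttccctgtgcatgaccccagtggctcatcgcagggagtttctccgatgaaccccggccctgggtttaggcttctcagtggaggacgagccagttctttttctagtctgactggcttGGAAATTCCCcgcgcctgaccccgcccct
Tnfaip3: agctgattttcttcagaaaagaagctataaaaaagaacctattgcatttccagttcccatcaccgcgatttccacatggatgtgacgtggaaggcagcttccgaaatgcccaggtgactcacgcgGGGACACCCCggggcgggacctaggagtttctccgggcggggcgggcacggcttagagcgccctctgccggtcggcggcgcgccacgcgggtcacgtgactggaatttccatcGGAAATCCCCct
The Nfkbia match lies 29 to 20 bases before the start and reads GGGAATTTCC on the opposite strand. The Tnfaip3 matches lie 125 to 116 and 12 to 3 bases before the start, and the nearer one reads GGGGATTTCC on the opposite strand. The stretch before the other Tnfaip3 start held 0 matches.

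The other IkB genes did not pass the test. Nfkbib, encoding IkB beta, measured 37.6 and 48.4 CPM in AAV-GFP and 26.6 to 35.1 CPM in the treated libraries, and the gene Gm6537 on the other strand shares 310 of its 1945 exon bases. Nfkbie, encoding IkB epsilon, measured 3.47 and 3.48 CPM in AAV-GFP, 2.61 and 3.83 CPM in AAV-XBP1S, and 1.22 and 1.41 CPM in AAV-ATF6N. Its log2 fold change in AAV-ATF6N was -1.40 ± 0.33 (SE; edgeR adjusted p = 0.185). Nfkbiz, a nuclear IkB protein that helps induce secondary response genes, had log2 fold changes of -0.70 and -0.20.

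**Figure D2:**
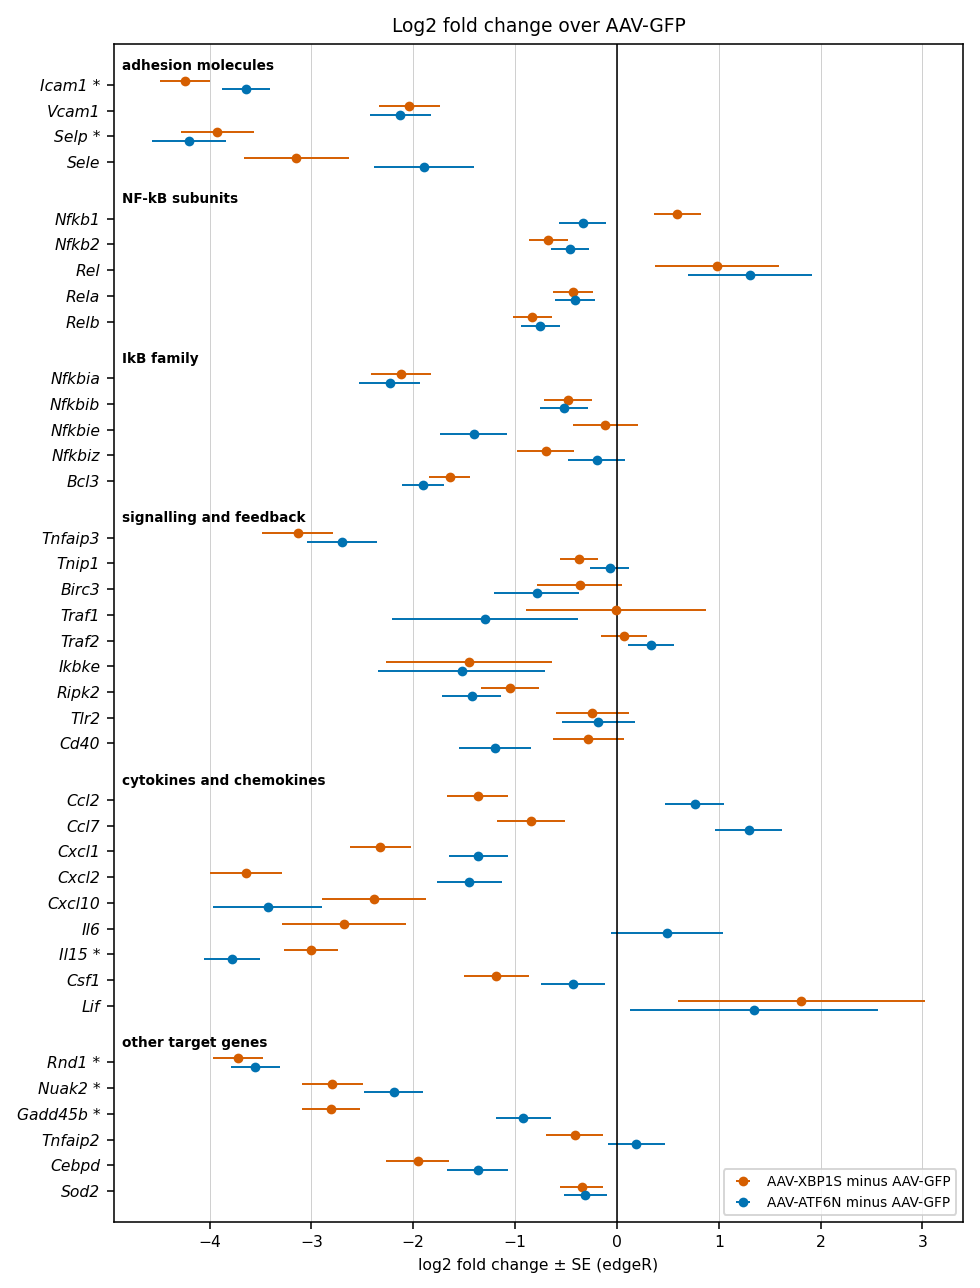
Log2 fold change over AAV-GFP of each of the 38 genes, with bars of 1 standard error from edgeR (n = 2 libraries a group), orange for AAV-XBP1S and blue for AAV-ATF6N; an asterisk marks the 6 genes selected on their values. Tnfaip3, Bcl3, Nfkbia and Vcam1 lie at similar distances left of 0 in both colours, while Ccl2, Ccl7 and Il6 lie left of 0 in orange (-1.37, -0.84 and -2.68) and right of 0 in blue (0.76, 1.29 and 0.49).

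Among the 8 cytokines and chemokines outside the selected genes, 2 fell in AAV-XBP1S and 0 in AAV-ATF6N. Over all genes tested, 0.137% and 0.165% were called lower. None of the 8 passed edgeR's test between the treated groups. Cxcl1 (chr5:90891245-90893115) and Cxcl2 (chr5:90903899-90905938), which draw neutrophils, lie 10783 bases apart. Cxcl1 measured 18.3 and 11.7 CPM in AAV-GFP, 2.98 and 3.02 CPM in AAV-XBP1S and 6.26 and 5.42 CPM in AAV-ATF6N. It fell in AAV-XBP1S with a log2 fold change of -2.32 ± 0.30 (SE) and edgeR adjusted p = 0.0435, while AAV-ATF6N gave -1.36 with adjusted p = 0.140. Cxcl2 measured 4.97 and 3.97 CPM in AAV-GFP, 0.333 and 0.379 CPM in AAV-XBP1S and 1.59 and 1.68 CPM in AAV-ATF6N. It fell in AAV-XBP1S with a log2 fold change of -3.65 ± 0.35 (SE) and edgeR adjusted p = 0.0162, while AAV-ATF6N gave -1.45 with adjusted p = 0.160. In both genes the AAV-ATF6N libraries lay between the other groups.

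The remaining chemokines and cytokines are given with their values. Cxcl10 (chr5:92346639-92348889), an interferon-inducible T cell chemokine, measured 5.77 and 3.49 CPM in AAV-GFP, 0.817 and 0.953 CPM in AAV-XBP1S and 0.604 and 0.245 CPM in AAV-ATF6N. Its log2 fold changes were -2.39 ± 0.51 (SE) and -3.43 ± 0.54 (SE), with edgeR adjusted p = 0.169 and 0.0616. Ccl2 (chr11:82035577-82037452) and Ccl7 (chr11:82045712-82047523), monocyte chemokines, lie 8259 bases apart. Ccl2 measured 5.42 and 3.69 CPM in AAV-GFP, 1.92 and 1.60 CPM in AAV-XBP1S and 7.94 and 7.55 CPM in AAV-ATF6N. Ccl7 measured 2.88 and 1.77 CPM in AAV-GFP, 1.26 and 1.33 CPM in AAV-XBP1S and 6.01 and 5.39 CPM in AAV-ATF6N. For both genes the AAV-XBP1S libraries lay below and the AAV-ATF6N libraries above the AAV-GFP libraries, with no call against AAV-GFP.

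Il6 (chr5:30013161-30019968), the cytokine that drives acute phase responses, showed the same order at a low level. It had 62 and 50 counts (0.630 and 0.701 CPM) in AAV-GFP, 10 and 8 counts (0.107 and 0.0978 CPM) in AAV-XBP1S and 82 and 56 counts (1.01 and 0.857 CPM) in AAV-ATF6N. Csf1, the growth factor of macrophages, measured 85.7 and 162 CPM in AAV-GFP, 48.9 and 60.1 CPM in AAV-XBP1S and 91.1 and 92.7 CPM in AAV-ATF6N, with log2 fold changes of -1.19 and -0.43 and no call. Lif, a cytokine of the Il6 family, had 2 to 40 counts per library and lay at or under the floor of 3 counts in AAV-GFP replicate 1, so no change could be read from it.

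The promoters of Cxcl1 and Cxcl2, which fell in AAV-XBP1S, and of Cxcl10 and Il6, which passed no test, are shown with the same conventions. They cover the 250 bases before each RefSeq start on GRCm38.p6. The promoter of Bcl3, which fell in both treated groups, held 0 matches and is not shown. The stretches are chr5:90890995-90891244 (plus strand) for Cxcl1, chr5:90903649-90903898 (plus) for Cxcl2, chr5:92348890-92349139 (minus) for Cxcl10 and chr5:30012864-30013113 (plus) for Il6.
Cxcl1: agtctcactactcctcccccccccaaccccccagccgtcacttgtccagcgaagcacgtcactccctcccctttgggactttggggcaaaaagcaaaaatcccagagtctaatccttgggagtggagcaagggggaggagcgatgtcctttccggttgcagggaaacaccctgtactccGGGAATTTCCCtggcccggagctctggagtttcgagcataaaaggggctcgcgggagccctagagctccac
Cxcl2: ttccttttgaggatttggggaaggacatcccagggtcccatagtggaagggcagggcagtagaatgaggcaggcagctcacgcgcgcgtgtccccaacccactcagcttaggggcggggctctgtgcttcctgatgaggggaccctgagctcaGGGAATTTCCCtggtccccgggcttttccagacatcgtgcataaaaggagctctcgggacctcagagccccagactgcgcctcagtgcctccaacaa
Cxcl10: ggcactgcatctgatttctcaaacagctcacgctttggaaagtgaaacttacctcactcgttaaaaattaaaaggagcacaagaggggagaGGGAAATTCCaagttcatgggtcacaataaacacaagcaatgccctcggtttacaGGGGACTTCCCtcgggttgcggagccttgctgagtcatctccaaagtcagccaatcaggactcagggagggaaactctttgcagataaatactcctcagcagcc
Il6: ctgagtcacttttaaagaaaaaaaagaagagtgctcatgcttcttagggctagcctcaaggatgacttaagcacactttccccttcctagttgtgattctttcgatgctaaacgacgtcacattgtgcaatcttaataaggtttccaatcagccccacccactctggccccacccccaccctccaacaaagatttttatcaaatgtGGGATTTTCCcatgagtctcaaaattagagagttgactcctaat
Cxcl1 and Cxcl2 hold the same match, GGGAATTTCC, at 71 to 62 and 97 to 88 bases before the start. Cxcl10 holds GGGAAATTCC at 159 to 150 bases and an overlapping group of matches nearer to the start. Il6 holds GGGATTTTCC at 44 to 35 bases before the start.

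Vcam1 and Sele, the 2 adhesion molecules outside the selected genes, were lower in all treated libraries than in both AAV-GFP libraries. The same pattern held for 9.31% of all genes tested. Vcam1 (chr3:116110020-116129688), the integrin ligand of inflamed endothelium, measured 34.1 and 55.9 CPM in AAV-GFP, 9.89 and 12.0 CPM in AAV-XBP1S and 11.2 and 9.43 CPM in AAV-ATF6N. It fell in AAV-ATF6N with a log2 fold change of -2.13 ± 0.30 (SE) and edgeR adjusted p = 0.0480. In AAV-XBP1S its log2 fold change of -2.04 ± 0.30 (SE) missed the threshold with edgeR adjusted p = 0.0622. Sele, E-selectin, measured 10.9 and 30.9 CPM in AAV-GFP, 2.00 and 2.71 CPM in AAV-XBP1S and 6.12 and 5.11 CPM in AAV-ATF6N, with log2 fold changes of -3.15 ± 0.51 (SE; edgeR adjusted p = 0.0857) and -1.89 ± 0.49 (SE; edgeR adjusted p = 0.222). Its level in AAV-GFP replicate 1 was 0.354 times that in replicate 2. Sele lies 57586 bases before the selected gene Selp on chromosome 1.

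Endothelial markers, which include Pecam1 and Cdh5, are given beside these genes because selectins and Vcam1 are made by endothelium. Their sum over 12 genes was 642 and 898 CPM in AAV-GFP, 1023 and 1372 CPM in AAV-XBP1S and 610 and 561 CPM in AAV-ATF6N. In AAV-XBP1S all 12 had log2 fold changes above 0 and in AAV-ATF6N 11 of 12 had them below 0, and none of the 12 passed the test. The adhesion genes had low levels in both treated groups. The marker sum was highest in AAV-XBP1S and lowest in AAV-ATF6N. In these bulk libraries, fewer cells of a type and less RNA per cell cannot be told apart. The 14 markers of macrophages and leukocytes summed to 46.7 and 48.7 CPM in AAV-GFP, 70.5 and 59.9 CPM in AAV-XBP1S and 59.9 and 59.8 CPM in AAV-ATF6N. Of the 13 that were tested, 9 had log2 fold changes above 0 in AAV-XBP1S and 8 in AAV-ATF6N, and none passed the test. Lyz2, the lysozyme of macrophages, measured 12.3 and 12.5 CPM in AAV-GFP, 23.7 and 19.3 CPM in AAV-XBP1S and 20.2 and 21.4 CPM in AAV-ATF6N. In the other direction, S100a8, a neutrophil protein, measured 0.996 and 0.645 CPM in AAV-GFP, 0.129 and 0.0733 CPM in AAV-XBP1S and 0 and 0.0306 CPM in AAV-ATF6N, and Cd3e was at or under the floor in every library.

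Markers of other cell types and of tissue dissociation were measured in the same libraries. Fibroblast markers (8 genes) summed to 459 and 581 CPM in AAV-GFP, 793 and 922 CPM in AAV-XBP1S and 805 and 768 CPM in AAV-ATF6N, and smooth muscle and pericyte markers (8 genes) to 802 to 1011 CPM over all libraries. Immediate early genes, which also rise when tissue is dissociated, summed to 1198 and 1073 CPM in AAV-GFP, 1277 and 1211 CPM in AAV-XBP1S and 1790 and 1782 CPM in AAV-ATF6N. Of these 8 genes, 3 rose in AAV-ATF6N: Fos by 1.70, Egr1 by 1.92 and Atf3 by 1.34 on the log2 scale (edgeR adjusted p = 0.0277, 0.0401 and 0.0480). In that comparison 0.35% of all genes tested were called higher. The part of these marker levels in the results on Ccl2, Ccl7, Il6 and the adhesion genes was not tested.

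**Figure D3:**
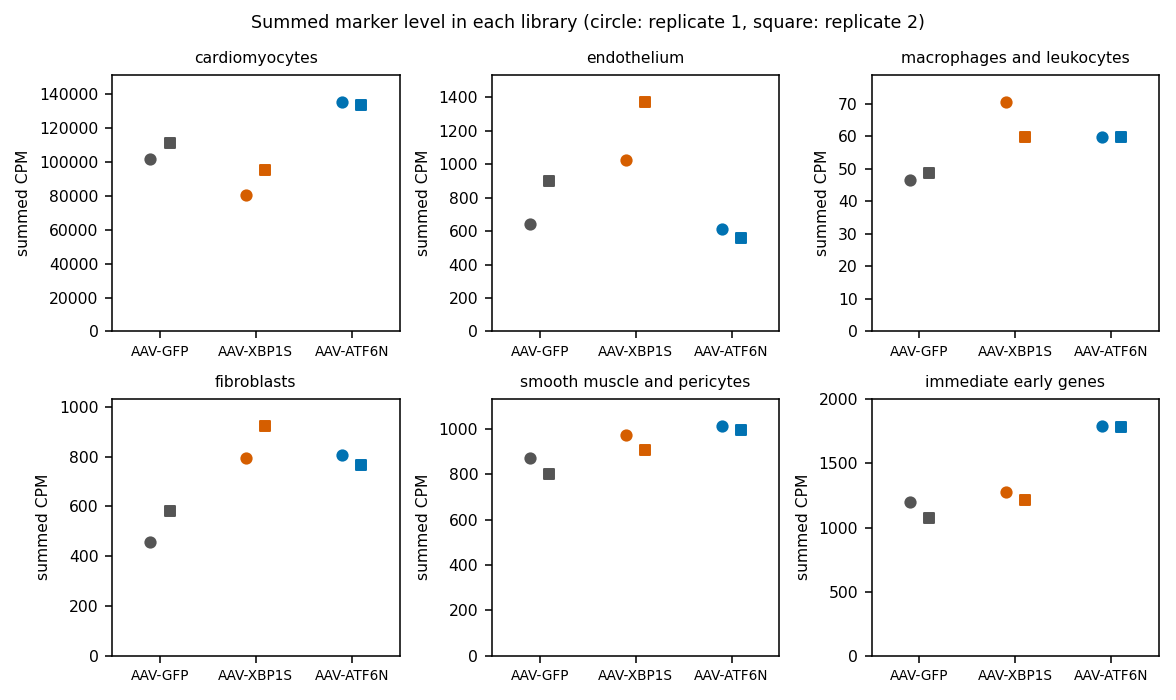
Summed CPM of each marker list in each library, with circles for replicate 1 and squares for replicate 2 and each vertical axis starting at 0. The endothelial sum is highest in the AAV-XBP1S libraries (1023 and 1372 CPM), and the immediate early sum is highest in the AAV-ATF6N libraries (1790 and 1782 CPM).

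Of the other target genes outside the selected ones, none passed the test. Cebpd, a transcription factor of the acute phase response, measured 68.8 and 41.3 CPM in AAV-GFP, 16 and 12.4 CPM in AAV-XBP1S and 19.8 and 22.9 CPM in AAV-ATF6N. Its log2 fold changes were -1.96 ± 0.31 (SE) and -1.37 ± 0.30 (SE), with edgeR adjusted p = 0.0786 and 0.159. The antisense gene 2310008H04Rik shares 319 of its 2260 exon bases. Tnfaip2, a TNF-inducible gene, was at 49.2 to 61.5 CPM in AAV-XBP1S and 81.3 to 87.2 CPM in AAV-ATF6N, and both groups overlapped AAV-GFP, whose higher library was at 91.7 CPM. Sod2 measured 1268 and 983 CPM in AAV-GFP and 796 to 975 CPM in the treated libraries, with log2 fold changes of -0.35 and -0.31.

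Comparing the treated groups directly asked whether the genes differed between XBP1S and ATF6N. None of the 32 remaining genes and none of the 6 selected genes passed edgeR's test, where 0.0548% of all genes tested were called lower and 0.171% higher in AAV-ATF6N. At an unadjusted p under 0.05, 12 of the 38 genes differed by edgeR, beside 13.2% of all genes tested. DESeq2 called 7 of the 38, 5 higher and 2 lower in AAV-ATF6N, where it called 2.2% of all genes higher and 3.55% lower. Both AAV-ATF6N libraries lay above both AAV-XBP1S libraries for 15 of the 32 genes and below both for 7, against 30.2% and 26.8% of all genes tested. The median log2 difference of the 32 genes was 0.07, beside -0.01 over all genes.

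The largest differences between the treated groups were in Il6, Cxcl2, Ccl7, Ccl2 and Gadd45b. Ccl2 was 4.39-fold higher in AAV-ATF6N than in AAV-XBP1S (log2 difference 2.13 ± 0.30 SE, edgeR adjusted p = 0.0579) and Ccl7 was 4.40-fold higher (2.14 ± 0.34 SE, edgeR adjusted p = 0.0655). Cxcl2 was 4.60-fold higher (2.20 ± 0.34 SE, edgeR adjusted p = 0.0630) and Il6 9.10-fold higher (3.17 ± 0.62 SE, edgeR adjusted p = 0.0940). Gadd45b, a selected gene, was 3.70-fold higher (1.89 ± 0.27 SE, edgeR adjusted p = 0.0579). All 5 missed the threshold in the fit of 6 libraries. With no filter on low counts, and in the fit of only these 4 libraries, edgeR called these 5 genes and no other of the 38. Over all genes tested, those fits called 458 of 18423 and 663 of 14343, beside 33 of 14587 in the main fit. Nfkb1 gave -0.93 ± 0.23 (SE; edgeR adjusted p = 0.156) and Nfkbie -1.29 ± 0.33 (SE; edgeR adjusted p = 0.159), with lower levels in AAV-ATF6N.

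**Figure D4:**
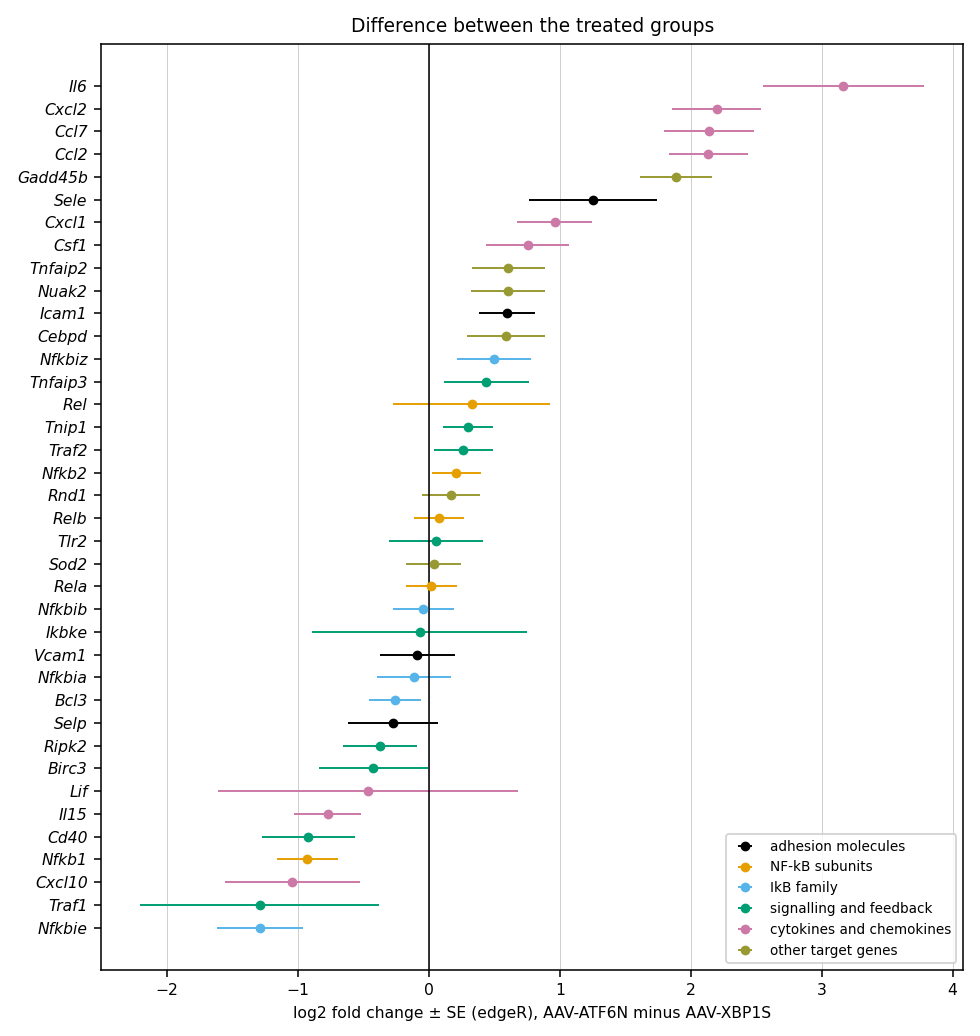
Log2 difference between AAV-ATF6N and AAV-XBP1S of each of the 38 genes, with bars of 1 standard error from edgeR (n = 2 libraries a group). Il6 (3.17), Cxcl2 (2.20), Ccl7 (2.14), Ccl2 (2.13) and Gadd45b (1.89) lie farthest to the right, and Nfkbie (-1.29) and Traf1 (-1.29) farthest to the left.

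The calls against AAV-GFP were lost when a treated library was left out. Each of those fits also called fewer of all genes tested than the main fit, so the loss was not particular to these genes. When any 1 of the 4 treated libraries was left out, none of the 4 genes called in AAV-XBP1S and none of the 4 called in AAV-ATF6N passed, with edgeR adjusted p from 0.0610 to 0.484 and from 0.0863 to 0.510. Their log2 fold changes kept their sign in each of these fits. When either AAV-GFP library was left out instead, all of these calls passed, with 8 and 9 of the 32 genes called in AAV-XBP1S without AAV-GFP replicate 1 and 2, beside 0.577% and 2.11% of all genes tested in those fits. In AAV-ATF6N, 5 and 13 of the 32 were called, beside 0.709% and 20% of all genes. With robust estimation, Cxcl1 in AAV-XBP1S and Vcam1 in AAV-ATF6N also missed the threshold, which left 3 calls in each comparison, beside 0.13% and 0.117% of all genes called lower. In the fit of only the 4 libraries compared, 0 of the 32 passed in either comparison, beside 0.0909% and 0.0567% of all genes. DESeq2 called 13 lower and 0 higher in AAV-XBP1S, where it called 1.47% of all genes lower and 2.1% higher, and 12 lower and 1 higher in AAV-ATF6N, where it called 1.66% lower and 2.42% higher. In the authors' deposited table, 9 of the 32 genes were lower at an adjusted p of 0.05 in each comparison and 0 were higher: Vcam1, Sele, Nfkbia, Bcl3, Tnfaip3, Cxcl1, Cxcl10 and Cebpd in both, with Cxcl2 in AAV-XBP1S and Ripk2 in AAV-ATF6N. Of the 23337 genes in the authors' deposited table, 0.343% were lower and 0.553% higher in AAV-XBP1S, and 0.617% lower and 1.17% higher in AAV-ATF6N.

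The promoters were searched for a kappaB motif near the start. RefSeq promoters were matched for 26 of the 38 genes by symbol. No entry was matched for Vcam1, Nfkb1, Relb, Nfkbiz, Ripk2, Cd40, Ccl2, Ccl7, Il15, Rnd1, Nuak2 and Cebpd. The kappaB consensus, searched on both strands in the 250 bases before the start, was in 15 of the 26 genes (57.7%), beside 10.5% of the 12676 tested genes with an entry and 8.23% of all 27025 genes. All 15 were among the 23 remaining genes (65.2%), and none was among Icam1, Selp and Gadd45b, the 3 selected genes with an entry. A looser motif (3 G, any 5 bases, then 2 C; it includes every consensus match) was in 22 of the 26 genes (84.6%), beside 62.3% of tested genes. A match is a description of letters, not a binding site, and these genes were put together as pathway genes and NF-kB targets, so the shares are not independent of that choice. Of the called genes with an entry, Nfkbia, Tnfaip3, Cxcl1 and Cxcl2 held the consensus and Bcl3 did not. Tnfaip3 held it before the more upstream of its 2 starts, with 0 matches before the other. The Icam1 stretch, chr9:21015690-21015939 (plus strand), is shown because it holds no consensus match, though it holds 1 match to the looser motif. Sites that depart from the consensus are not found by this search, so the absence of a match is not the absence of a site.
Icam1: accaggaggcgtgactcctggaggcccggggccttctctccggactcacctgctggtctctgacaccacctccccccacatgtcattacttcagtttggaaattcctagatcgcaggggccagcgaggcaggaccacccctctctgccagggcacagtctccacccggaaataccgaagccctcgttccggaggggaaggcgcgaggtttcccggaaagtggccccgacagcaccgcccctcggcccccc

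Other genes of the pathway were drawn from a pair of lists. Of 30 signalling genes that are no members (receptors, adaptors, IkB kinases and deubiquitinases), 30 were tested and 0 passed the test in any of the 3 comparisons, with median log2 values of -0.01, -0.11 and -0.03. At an unadjusted p under 0.05 by edgeR, 3, 5 and 3 of them differed, a share near the 11.6%, 13.5% and 13.2% of all genes tested. The smallest adjusted p in the comparisons with AAV-GFP belonged to Tab1, an adaptor of the TAK kinase, in AAV-XBP1S (log2 fold change -0.88, edgeR adjusted p = 0.227), and to Tlr4, the receptor of bacterial endotoxin, in AAV-ATF6N (1.92, adjusted p = 0.0908). Between the treated groups it belonged to Tnfrsf1a, a receptor of TNF, with a log2 difference of -0.93 (edgeR adjusted p = 0.156). Of 30 further NF-kB targets, 21 were tested. In AAV-XBP1S, 1 fell and 0 rose, where 0.137% of all genes tested were called lower and 0.178% higher. In AAV-ATF6N, 2 fell and 0 rose, where 0.165% were called lower and 0.35% higher. Irf1, a transcription factor of the interferon response, measured 191 and 233 CPM in AAV-GFP, 49.1 and 46.7 CPM in AAV-XBP1S and 26.7 and 27.7 CPM in AAV-ATF6N, and fell with log2 fold changes of -2.15 (edgeR adjusted p = 0.0155) and -2.96 (edgeR adjusted p = 0.00567). Tifa, an adaptor that links TRAF proteins to bacterial sugars, measured 6.28 and 5.51 CPM in AAV-GFP, 2.11 and 1.56 CPM in AAV-XBP1S and 0.789 and 1.01 CPM in AAV-ATF6N, and fell in AAV-ATF6N with a log2 fold change of -2.71 (edgeR adjusted p = 0.0347). Ptx3, a secreted pattern-recognition protein, measured 0.254 and 0.140 CPM in AAV-GFP and 2.42 and 2.36 CPM in AAV-ATF6N, with edgeR adjusted p = 0.0539. The median log2 value of the 21 genes was -0.25 in AAV-XBP1S, -0.06 in AAV-ATF6N and 0.10 between the treated groups.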

How the data were processed

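Polyadenylated RNA of sorted cardiomyocytes was extracted with PureLink, turned into cDNA with SMART-Seq v4 (SMART-Seq2 in the description) and made into libraries with Nextera XT, per the labels. The authors deposited whole-number read counts per gene, for which the submitters' processing notes name STAR, featureCounts and mm10. The sources used here do not give their versions, the annotation or any strand setting. The authors' deposited tables against AAV-GFP, 1 for each treated group, hold p-values, log2 fold changes, standard errors and test statistics as scores, and a mean normalized signal, per the file headers, with DESeq2 and DESeq named in the submitters' processing notes. They were used only where named.

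Counts from 2 to 101 were even in 72.7% to 76.1% of cases per library, so a count need not be as many independent fragments. The floor covers counting error only, while the standard errors come from the edgeR fits across libraries. From the counts, CPM with TMM scaling, RPKM from the deposited exon lengths and edgeR 4.0.16 quasi-likelihood fits (R 4.3.3) were computed over all genes and all 6 libraries with group as the only term. Genes passed filterByExpr at a minimum count of 10 (14587 of 23337), p-values were two-sided and adjusted by Benjamini-Hochberg over these genes, and the threshold was 0.05. There were 3 residual degrees of freedom. The fit was tested on simulated data. Promoters came from RefSeq on GRCm38.p6. Alternatives were DESeq2 1.42.0, RLE scaling, no filter, robust estimation, only the 4 libraries compared, a replicate block and leaving out each library.

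The genes and lists were chosen with earlier results of these data known. Which genes were selected on their values is recorded only in part, so the 6 that earlier results singled out were set apart, and the p-values of the other 32 are not free of that choice. All 38 genes are named. Values in every library are given for the selected genes, those passing any comparison, the 3 with the largest change against AAV-GFP at 1 CPM or more, and Nfkbia, Nfkb1 and Rela; further per-library values are shown where groups separated and were chosen after they were seen.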

Additional observations from a re-analysis of the deposited data

How the results depend on the processing

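RLE scaling in place of TMM, and robust estimation, kept the direction of each of the 38 genes, and the counts of genes called stayed within 1.5 times the main ones. In AAV-XBP1S against AAV-GFP, edgeR called 46 genes in all and 4 of the 32 remaining genes. These counts became 233 and 9 with no filter on low counts, 13 and 0 in the fit of only the 4 libraries compared, 520 and 13 by DESeq2, and ran from 2 to 322 and from 0 to 9 when 1 library was left out. In AAV-ATF6N against AAV-GFP the counts were 75 and 4, and became 348 and 9, 8 and 0, 595 and 13, with ranges of 6 to 3055 and 0 to 13. Between the treated groups they were 33 and 0, and became 458 and 4, 663 and 4, 839 and 6, with ranges of 1 to 717 and 0 to 5. Without a filter or with fewer libraries the number of genes tested and the residual degrees of freedom differ, and the cause of the other shifts was not tested.

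The labels give the groups the same replicate numbers, and nothing says that a number marks shared mice or days. The correlation of deviations between same-numbered libraries was 0.379 for AAV-GFP and AAV-XBP1S, -0.0402 for AAV-GFP and AAV-ATF6N and -0.0480 for AAV-XBP1S and AAV-ATF6N over 14587 genes. With a replicate block the counts were 165 and 8 in AAV-XBP1S, 237 and 6 in AAV-ATF6N and 356 and 3 between the treated groups.

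The fold changes that reversed did so only when 1 library was left out, and none was called in the fit of 6 libraries. With 1 library left in a group, it is assumed to vary like the other groups. Their log2 ranges in AAV-XBP1S were Nfkbie -0.41 to 0.19, Birc3 -0.93 to 0.19, Traf1 -0.60 to 1.01, Traf2 -0.15 to 0.37, Tlr2 -0.58 to 0.23, Tnfaip2 -0.73 to 0.0202. In AAV-ATF6N they were Tlr2 -0.52 to 0.26, Csf1 -0.82 to 0.11, Tnfaip2 -0.12 to 0.60. Between the treated groups they were Vcam1 -0.26 to 0.058, Rel -0.11 to 0.87, Rela -0.0787 to 0.11, Nfkbia -0.32 to 0.0897, Nfkbib -0.23 to 0.13, Birc3 -0.87 to 0.14, Ikbke -0.56 to 0.57, Tlr2 -0.22 to 0.29, Lif -1.10 to 0.66, Sod2 -0.10 to 0.15. Over all fold changes of the 38 genes and all alternatives, 1206 kept their direction and, where calls were compared, their call. Another 85 became called, 42 lost a call, 8 moved by more than the spread and 27 reversed. For the 6 selected genes against AAV-GFP, calls were not compared. Their values counted as kept if the direction held and the shift was below the spread. The looser motif was in 22 genes and the consensus in 15. Depth limits Lif, Il6, Traf1 and Ikbke most, and 2 libraries a group limit every test.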

Other observations

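Spread between the 2 libraries of a group differed by group and touched few of the NF-kB genes. In AAV-GFP, 5 of the 38 genes (Ikbke, Lif, Rel, Sele and Traf1) differed by over 2-fold between the libraries, beside 25.9% of all genes tested. In AAV-XBP1S, 2 of the 38 did (Ikbke and Lif), beside 11.7% of all genes, and in AAV-ATF6N, 2 did (Cxcl10 and Traf1), beside 7.86%. Of these 6 genes, Sele and Cxcl10 had a mean of over 4 CPM in AAV-GFP.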
